A study of Homo sapiens with 6 samples.

Results

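FHIT and WWOX, the genes that span the aphidicolin-sensitive common fragile sites FRA3B and FRA16D, were described from the ATAC-seq peak lists of the RKO colon cancer cell line. A peak was taken as a member when its midpoint lay in the RefSeq body of either gene or within 1 kb of it. Overlapping peaks of the 6 samples (1 bp or more) were joined to regions, which gave 15 regions of FHIT and 6 of WWOX, 21 of the 102784 regions of the series. Per sample, both genes together held between 11 and 20 peaks of between 64511 and 84510. Of the 6 samples, 3 had received aphidicolin (APH) at 0.2 µM over 16 h and 3 DMSO, the solvent. All came from the same unmodified line, so they describe RKO cells alone. The labels do not tie the replicates to separate cultures, while the paper names biological replicates in its methods and independent experiments in its results. The p-values measure the spread between these samples. Errors of group values are SD over the 3 samples of a group, and exact p denotes a two-sided permutation test between the groups, which cannot give a p below 0.1 with 3 samples against 3.

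In ATAC-seq, the Tn5 transposase cuts accessible DNA and adds sequencing adapters to it, and peaks mark open chromatin such as promoters and enhancers. Common fragile sites are chromosomal regions that show gaps and breaks on mitotic chromosomes when DNA synthesis is partly inhibited, as by low doses of aphidicolin, an inhibitor of the replicative DNA polymerases. FHIT encodes a diadenosine triphosphate hydrolase of the histidine triad family and WWOX an oxidoreductase with WW domains. Both are very long genes with large introns, lie in DNA that replicates late, are often deleted in cancers and have been studied as tumour suppressors.

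The value of a peak is its average signal in a map of extended alignments counted in 32-nt bins, which was not multiplied by a factor for library size. Depth is unknown, so values were also divided by the sample mean of all peaks. That mean was between 78.3 and 85.2 in DMSO and between 69.4 and 73.0 in APH, and the number of peaks was between 64511 and 77194 in DMSO and between 70121 and 84510 in APH. A peak lay within 1 kb of the start of 4 of 12 colon epithelial marker genes in all 6 samples, among them EPCAM, a surface marker of epithelium, and CDX2, an intestinal transcription factor. No sample had one at the starts of CDH1, KRT19, CDX1, VIL1, CDH17 and MUC2. Of 8 markers of blood, fibroblast and endothelial cells, COL1A1 had a peak in all 6 samples, PDGFRB in 1 sample and the others in none.

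FHIT lies on the minus strand at chr3:59747277-61251452 (GRCh38), a length of 1504176 bp, and WWOX on the plus strand at chr16:78099654-79212667, a length of 1113014 bp. RefSeq lists 2 starts for FHIT, at the upstream end of the gene and inside the gene body, and 1 start for WWOX. The windows from 250 bases before to 50 bases after each start (RefSeq, GRCh38.p14) are shown because the strongest peaks of both genes lie on 2 of them and no peak lies on the third. Capitals mark matches on either strand to the GC box GGGCGG, the box named after its letters CCAAT, the ETS factor motif CCGGAAG, the YY1 motif CCATNTTG, the NRF1 core CGCATGCG, the AP-1 motif TGACTCA and the TATA box TATAAA, and no match overlapped another.
FHIT upstream start, chr3:61251403-61251702, minus strand: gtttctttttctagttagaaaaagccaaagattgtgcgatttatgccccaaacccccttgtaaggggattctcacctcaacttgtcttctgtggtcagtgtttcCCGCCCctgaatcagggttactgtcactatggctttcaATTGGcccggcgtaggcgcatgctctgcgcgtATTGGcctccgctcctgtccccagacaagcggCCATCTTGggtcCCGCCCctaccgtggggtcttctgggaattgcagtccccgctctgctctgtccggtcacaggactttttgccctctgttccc
FHIT internal start, chr3:60080860-60081159, minus strand: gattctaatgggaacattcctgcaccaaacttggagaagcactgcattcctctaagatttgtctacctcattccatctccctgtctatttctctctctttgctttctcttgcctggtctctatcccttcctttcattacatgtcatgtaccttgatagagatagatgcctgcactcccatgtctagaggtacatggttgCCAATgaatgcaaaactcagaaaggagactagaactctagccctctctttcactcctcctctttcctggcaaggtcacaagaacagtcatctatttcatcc
WWOX start, chr16:78099404-78099703, plus strand: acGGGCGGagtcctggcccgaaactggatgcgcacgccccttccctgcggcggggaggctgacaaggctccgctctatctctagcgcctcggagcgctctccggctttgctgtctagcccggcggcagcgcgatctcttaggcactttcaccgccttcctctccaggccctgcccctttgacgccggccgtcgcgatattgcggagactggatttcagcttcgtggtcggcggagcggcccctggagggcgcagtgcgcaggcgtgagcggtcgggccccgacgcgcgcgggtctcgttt

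The upstream FHIT window had 13 CpG dinucleotides and 55% G and C, with 2 GC boxes, 2 CCAAT boxes and 1 YY1 match. The WWOX window had 38 CpG and 69% G and C, with 1 GC box. The internal FHIT window had no CpG, 44% G and C and 1 CCAAT box. Of 35116 RefSeq windows of the same length, a GC box was found in 45%, a CCAAT box in 34.6% and the YY1 letters in 5.2%. ETS letters were found in 10.3% of all windows, NRF1 letters in 2.02%, AP-1 letters in 4.95% and a TATA box in 11.5%, and none of these in the 3 windows above. A peak of all 6 samples overlapped the upstream FHIT window and the WWOX window, and no peak of any sample the internal FHIT window, whose nearest region was 5.64 kb away. Over all windows, 38.6% had a peak in all 6 samples and 56% in none. This share was 70.1% of windows with 20 or more CpG, 44.7% of those with 10 to 19 and 3.87% of those with 0 to 4.

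The start of FHIT carried the strongest peak of the gene in every sample. The region, chr3:61251226-61251748, also overlaps the uncharacterized gene LOC124909387. Its value was 280, 321 and 318 in the 3 DMSO samples and 264, 284 and 253 in the 3 APH samples. The highest APH value lay above the lowest DMSO value, so the groups overlapped. The peak ranked above 97.2% to 98.1% of all peaks of its sample. Relative to the mean over all peaks, it stood at 3.58, 3.76 and 3.83 in DMSO and at 3.80, 3.89 and 3.57 in APH. On this relative scale the groups interleaved, with a log2 difference of 0.01.

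The start of WWOX, chr16:78099174-78100166, had the widest region of both genes, 993 bp. Its value was 243, 356 and 319 in DMSO and 269, 289 and 271 in APH. All APH values lay inside the range of the DMSO values, and the DMSO samples were the more spread, with an SD of 57.8 against 10.7 (n = 3 each). Relative to the mean over all peaks the values were 3.10, 4.18 and 3.84 in DMSO and 3.88, 3.95 and 3.81 in APH, a log2 difference of 0.08. Both starts had nearly equal values. The ratio of the FHIT to the WWOX start within a sample, which does not depend on scaling, was 1.15, 0.901 and 0.999 in DMSO and 0.978, 0.985 and 0.936 in APH (exact p = 0.7).

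**Figure D1:**
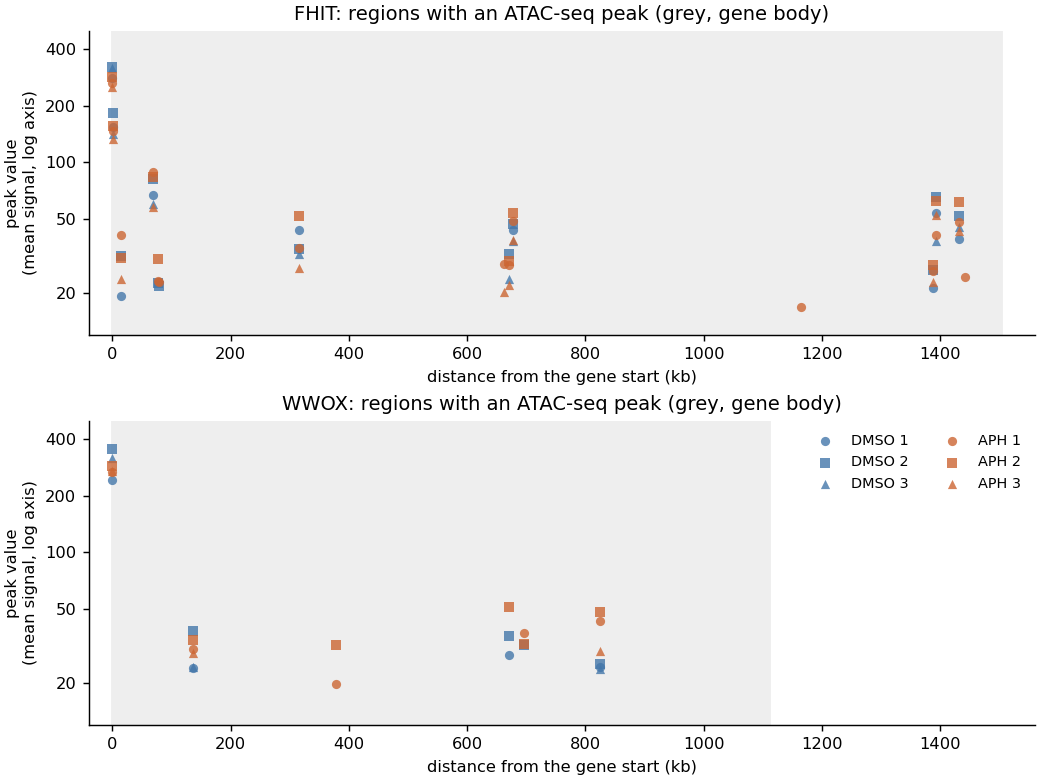
Value of each peak of FHIT (top) and WWOX (bottom) against the distance of its region from the gene start in kb, with a log axis for the value (mean signal over the peak). Each symbol is 1 sample (blue, DMSO; orange, APH; shapes, replicates) and the grey band is the gene body. The regions at the starts lie at 243 and above in every sample, and FHIT regions lie in groups separated by stretches of up to 486 kb.

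Away from the start, FHIT regions fell into groups. Of the 15 regions, 6 lay within 78.5 kb of the start, 1 at 316 kb, 3 between 662 and 678 kb, 1 at 1165 kb and 4 between 1389 and 1442 kb. A strong region lay 1.29 kb inside the gene (chr3:61249950-61250373), with values of 154, 184 and 141 in DMSO and 146, 156 and 132 in APH. It had between 0.443 and 0.574 of the value of the start region in each sample. Next in strength was a region 69.3 kb inside the gene (chr3:61181892-61182316), with values of 66.9, 81.2 and 59.9 in DMSO and 89.2, 83.2 and 57.8 in APH. The lowest and the highest of these 6 values were both in APH.

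Further inside the gene, 4 FHIT regions had a peak in all samples. At 316 kb (chr3:60935713-60936088) the values were 43.7, 34.3 and 32.4 in DMSO and 35.0, 51.6 and 27.1 in APH. At 678 kb (chr3:60573485-60573946) they were 43.6, 46.8 and 38.1 in DMSO and 48.3, 53.8 and 38.5 in APH. The last of them lie close to the downstream end of the gene. At 1394 kb (chr3:59857711-59858128), in a region shared with the uncharacterized gene LOC105377113, the values were 53.5, 64.9 and 37.9 in DMSO and 40.8, 61.7 and 52.2 in APH. At 1433 kb (chr3:59818535-59818941) they were 39.0, 51.8 and 45.2 in DMSO and 48.1, 61.1 and 42.9 in APH. In all 4 the groups overlapped, and the highest value was in the second replicate of APH or, at 1394 kb, of DMSO, the samples with the most peaks of their groups.

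The other 8 FHIT regions had a peak in 1 to 5 samples, with values between 16.8 and 40.8. The longest stretch of FHIT without a peak in any sample ran over 486 kb, chr3:60086998-60573484, or 32.3% of the gene. It is bounded on the downstream side by a region with a single peak, in APH replicate 1 and with a value of 16.8, the weakest of both genes. Between regions found in every sample, the stretch was 715 kb, chr3:59858129-60573484, or 47.6% of the gene, and the internal start of FHIT lies inside it. Copy number was not analysed here.

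WWOX had 6 regions. Beyond the start, only 2 had a peak in all samples. The first lay 136 kb inside the gene (chr16:78235227-78235548), within the antisense gene WWOX-AS1, with values of 24.1, 37.8 and 24.5 in DMSO and 30.4, 33.9 and 29.0 in APH. The second lay at 826 kb (chr16:78925042-78925437), with values of 24.3, 25.3 and 23.7 in DMSO and 43.1, 48.0 and 29.6 in APH. There all APH samples lay above all DMSO samples. The other 3 regions, at 379, 671 and 697 kb, had a peak in 2 or 3 samples each, with values between 19.7 and 51.0, and the one at 379 kb lies in the antisense gene WWOX-AS2. No sample had a peak over the 292 kb from chr16:78478795 to 78770603, 26.2% of the gene. Between regions found in every sample the stretch was 689 kb, chr16:78235549-78925041, or 61.9% of the gene. Exon positions on GRCh38 were not used here, so the regions inside both genes are placed by their distance from the start and not as exonic or intronic.

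APH samples had more FHIT peaks on average, within the spread of the replicates. FHIT had 9, 12 and 8 peaks in DMSO and 15, 11 and 11 in APH, a mean of 9.67 ± 2.08 against 12.3 ± 2.31 (exact p = 0.3). DMSO replicate 2 had more than 2 of the APH samples. Per 100000 peaks of the sample, FHIT had 13.7, 15.5 and 12.4 in DMSO and 18.8, 13.0 and 15.7 in APH, and the means of 13.9 ± 1.58 and 15.8 ± 2.89 did not differ beyond this spread (exact p = 0.4). The FHIT peaks of a DMSO sample spanned 3.53 ± 0.536 kb, those of an APH sample 4.28 ± 0.629 kb (exact p = 0.3).

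WWOX had 4, 5 and 3 peaks in DMSO and 5, 6 and 3 in APH, a mean of 4.0 ± 1.0 against 4.67 ± 1.53 (exact p = 0.8). Per 100000 peaks this was 5.73 ± 0.960 against 5.88 ± 1.45 (exact p = 0.9). WWOX peaks spanned 1.74 ± 0.351 kb against 1.80 ± 0.414 kb (exact p = 0.8). In both groups the third replicate had the fewest WWOX peaks. The shares of both genes overlapped between the groups, beside 5.44% of genes with a mean of at least 5 peaks whose share was higher and 9.46% whose share was lower in APH without overlap. Of the genes of at least 500 kb, 8.25% were higher and 4.44% lower without overlap.

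The mean value of FHIT peaks was 80.2, 76.6 and 87.0 in DMSO and 58.8, 79.2 and 63.0 in APH (exact p = 0.2). As log2 ratio to the sample mean of all peaks, this was -0.02 ± 0.12 against -0.10 ± 0.19 (exact p = 0.6). FHIT peaks therefore had a mean value close to that of an average peak in both groups, with the start region far above it and most others below. Without the peak at the start, the log2 ratio was -0.59 ± 0.08 against -0.55 ± 0.21 (exact p = 1.0).

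The mean value of WWOX peaks was 79.8, 97.3 and 122 in DMSO and 80.0, 81.0 and 110 in APH (exact p = 0.7). As log2 ratio to the sample mean it was 0.26 ± 0.27 against 0.33 ± 0.26 (exact p = 0.6). In both groups it was highest in the third replicate, where the start peak was 1 of only 3 peaks. Without the start peak the log2 ratio was -1.61, -1.38 and -1.79 in DMSO and -1.09, -0.89 and -1.28 in APH. On this measure all 3 APH samples lay above all 3 DMSO samples, by 0.51 on average (exact p = 0.1, the smallest this design allows). It rests on 2 to 5 weak peaks per sample, and the values as deposited, 25.6, 32.6 and 24.1 in DMSO and 32.6, 39.5 and 29.3 in APH, overlapped (exact p = 0.3). Division by the sample mean, which was lower in APH, also gave a median change of 0.20 over regions of the series away from promoter windows. Among all regions with a peak in every sample, 16.9% were higher and 3.33% lower in APH without overlap on that scale.

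**Figure D2:**
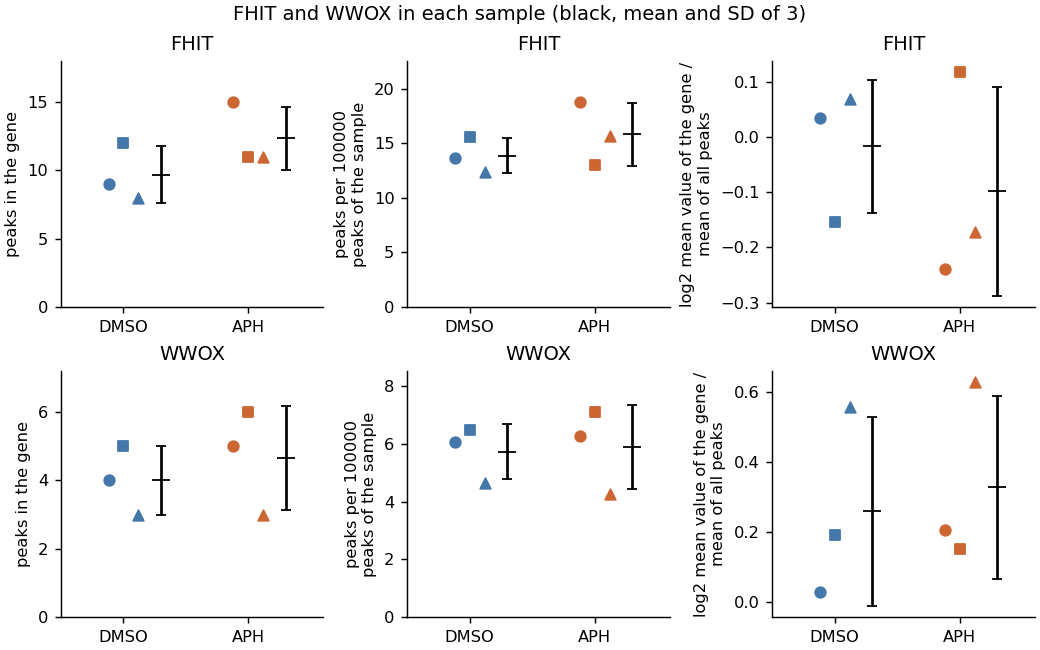
Peak number, peaks per 100000 peaks of the sample and log2 of the mean peak value over the mean of all peaks, for FHIT (top row) and WWOX (bottom row). Each symbol is 1 sample, and the black bar gives the mean and SD of 3 samples; the groups overlap in all 6 panels, with FHIT peak numbers of 8 to 12 in DMSO and 11 to 15 in APH.

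Region by region, 10 of the 21 regions had a peak in all 6 samples and entered a limma fit of log2(value + 1) over all 50150 such regions. In this fit, which did not pair samples by replicate number, none of the 10 passed an adjusted p of 0.05 (limma, Benjamini-Hochberg), and 0% of all regions did. These calls depended on that choice, and those with a replicate block are given at the end of the report. At an unadjusted p below 0.05, 1 of the 10 was higher in APH, beside 2.46% of all regions, and none was lower, beside 10.1%. That region was the one at 826 kb in WWOX, with a log2 change of 0.67 ± 0.22 (SE), an unadjusted limma p of 0.00679 and an adjusted p of 0.29. Its change was above that of 99.7% of all regions fitted. It was also the only one of the 10 whose groups did not overlap, beside 4.21% of all regions higher and 14.4% lower in APH without overlap. Divided by the region at 136 kb of the same sample, a ratio computed after the values were seen, it stood at 1.01, 0.669 and 0.966 in DMSO and at 1.42, 1.42 and 1.02 in APH. This ratio is a description only, as it reuses the values for which the region was picked.

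At the starts, the log2 change was -0.20 ± 0.13 for FHIT (limma adjusted p = 0.557) and -0.13 ± 0.15 for WWOX (adjusted p = 0.77). After quantile normalization both changes had the other sign, 0.038 and 0.11. The region 1.29 kb into FHIT had a change of -0.13 ± 0.14 (adjusted p = 0.753), which became 0.044 in the same way. With 1 sample left out, the change of the WWOX start was between -0.29 (without DMSO replicate 1) and -0.0095 (without DMSO replicate 2), and that of the FHIT region at 1.29 kb between -0.22 (without DMSO replicate 3) and -0.027 (without DMSO replicate 2). The median change was -0.26 over the 9777 regions at a RefSeq promoter window and -0.01 over the 40373 others. The log2 change of the FHIT start was above that of 65.9% of these promoter regions, and that of the WWOX start above 78.4%. Among the 5 other FHIT regions the change lay between -0.00 and 0.15, and in the WWOX region at 136 kb it was 0.13 ± 0.21 (adjusted p = 0.845). The median over the FHIT regions was 0.00 and over the WWOX regions 0.13, beside -0.06 over all regions.

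After division by the sample mean, the change was above 0 in all 10 regions, with a median of 0.27. It was above 0 in 72.6% of all regions, in 81.3% of those away from promoter windows and in 36.5% of those at them. Without this division 6 of the 10 were above and 4 below 0, beside 40.7% of all regions above 0. The same median was 0.15 over all 50150 regions, since the mean over all peaks was lower in APH, and 0.20 over those away from promoter windows. Of the 10, the WWOX region at 826 kb was again the only one without overlap on this scale, beside 16.9% of all regions that were higher and 3.33% that were lower in APH without overlap.

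**Figure D3:**
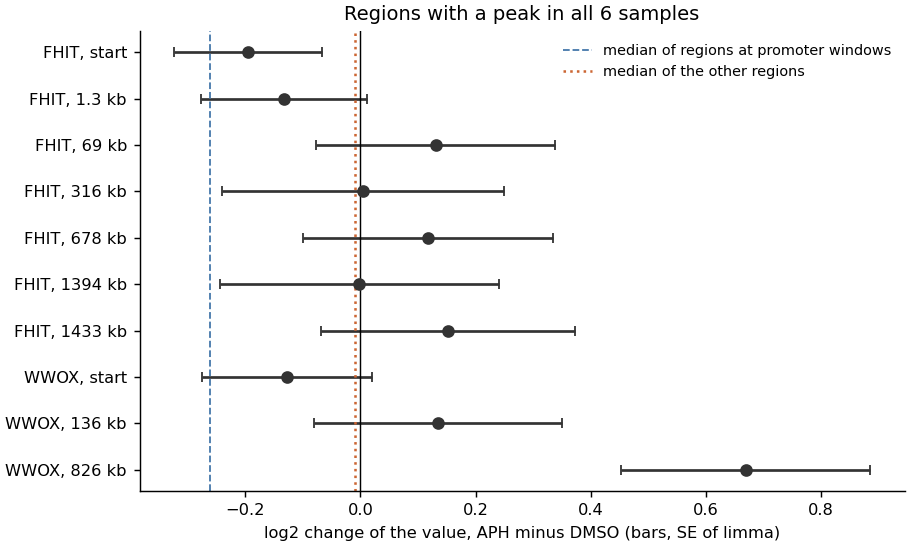
Log2 change of the value from DMSO to APH in the 10 regions found in all 6 samples, named by gene and distance from the start, with the SE of the limma fit as bars. The dashed and dotted lines are the medians of regions at promoter windows (-0.26) and of the other regions (-0.01); 9 regions lie within 0.20 of 0 and the WWOX region at 826 kb at 0.67.

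Of the 15 FHIT regions, 7 had a peak in all samples, 12 in both groups, 3 in APH only and none in DMSO only. Of the 6 WWOX regions, 3 had a peak in all samples, 5 in both groups, 1 in APH only and none in DMSO only. Together 47.6% had a peak in all samples and 4 of 21 in APH only, beside 48.8% and 18.5% of all merged regions, and 7.03% of all merged regions had one in DMSO only. The shares of both genes were near those of the series. No region of either gene had a peak in all samples of one group and in none of the other, beside 1.11% of all regions for APH and 0.184% for DMSO.

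Samples differed in how many of the regions not found everywhere had a peak. Their values, up to 40.8 in FHIT and 51.0 in WWOX, overlapped those of regions found in all samples away from the starts. Of the 8 FHIT regions that lacked a peak in some sample, DMSO replicates 1 to 3 had 2, 5 and 1 and APH replicates 1 to 3 had 8, 4 and 4. All peaks of these samples numbered 65865, 77194 and 64511 in DMSO and 79807, 84510 and 70121 in APH. In 5 of the 6 samples the FHIT count followed the order of these totals, and APH replicate 2, with the most peaks, departed from it with 4 of the 8 regions. APH replicate 1 alone had a peak in all 8, and 2 of the 3 FHIT regions with APH peaks only had theirs in this sample alone. Of the 3 such WWOX regions, the DMSO samples had 1, 2 and 0 and the APH samples 2, 3 and 0. With the same number of peaks taken from each sample, the 64511 strongest, the difference in FHIT peak number was 1.33 (exact p = 0.4) in place of 2.67, and with peaks at or above the pooled median it was 0.667 (exact p = 0.9).

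Both genes had few peaks for their length. FHIT had between 5.31 and 9.96 peaks per Mb and WWOX between 2.69 and 5.38, and FHIT had the higher density in 6 of 6 samples, by 3.42 peaks per Mb on average (exact sign-flip permutation test over samples, two-sided, p = 0.03125). No smaller p is possible in this test with 6 samples. The ratio of both densities did not differ between the groups beyond the spread (exact p = 0.6). The median over the 315 protein-coding genes of at least 500 kb was 11.9 peaks per Mb (mean of the 6 samples). On this scale FHIT, with 7.30, lay above 25.1% of these genes and WWOX, with 3.89, above 7.94%. The longest stretch without a peak was above that of 95.9% of the same genes in FHIT and of 77.1% in WWOX, beside a median of 181 kb.

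**Figure D4:**
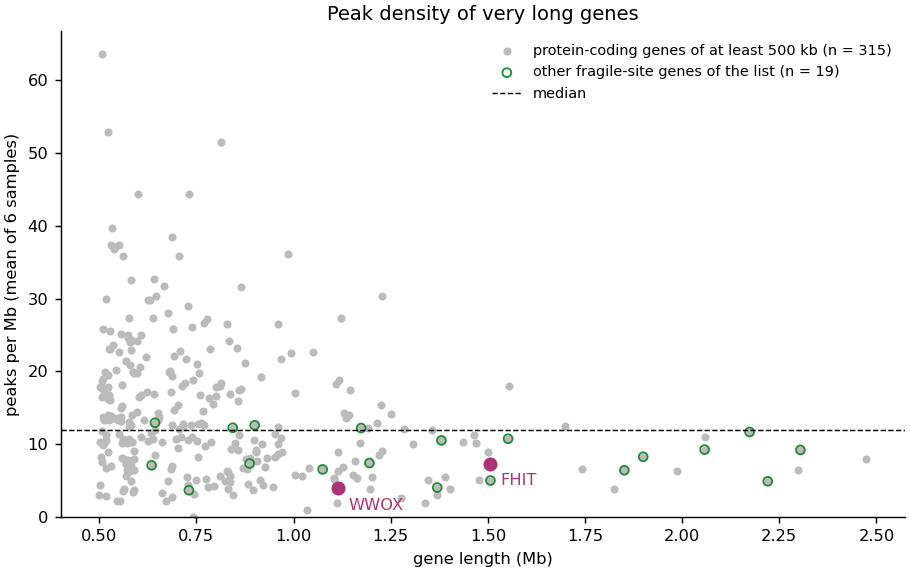
Peaks per Mb (mean of 6 samples) against gene length in Mb for the 315 protein-coding genes of at least 500 kb (grey points), with the fragile-site genes of the list that are this long circled in green, FHIT and WWOX in purple and the median of 11.9 as a dashed line. FHIT (7.30) and WWOX (3.89) lie below the median.

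The DNA beside the genes was compared over 1 Mb on each side. Downstream of FHIT, towards CFAP20DC, there were between 6 and 11 peaks per Mb, and upstream, over the beginning of PTPRG, a receptor tyrosine phosphatase gene, between 10 and 21. FHIT lay below either side in 6 of 6 samples, by a mean log2 ratio of -0.27 and -1.06 (exact sign-flip permutation tests over samples, p = 0.03125 each). This p is the smallest that 6 samples allow, and it measures the spread between samples of 1 line, not between stretches of DNA. On the downstream side the margin was small in DMSO replicate 1, with 5.98 against 6 peaks per Mb. Upstream of WWOX, where VAT1L, NUDT7 and other genes lie, there were between 18 and 24 peaks per Mb, and downstream, around MAF, a transcription factor gene, between 4 and 9. WWOX lay below either side in 6 of 6 samples, by a mean log2 ratio of -2.46 and -0.63 (p = 0.03125 each, in the same exact test). The ratio of each gene to its flanks did not differ between DMSO and APH beyond the spread (exact permutation tests, p = 0.9 for FHIT and 0.7 for WWOX).

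Over the 2389 protein-coding genes with a mean of at least 5 peaks, the share of the sample's peaks was compared with limma. FHIT had a log2 change of 0.15 ± 0.14 (SE, adjusted p = 0.776), which was 0.029 without APH replicate 1 and 0.28 without APH replicate 2. No gene passed an adjusted p of 0.05 (0%), and at an unadjusted p below 0.05 the share was higher with APH in 3.68% and lower in 4.98%. WWOX had too few peaks for this fit. With genes of at least 1 peak on average it had a log2 change of -0.01 ± 0.17 (limma adjusted p = 0.95), and 0.0918% of the 15255 genes passed, with 2.73% higher and 5.95% lower with APH at an unadjusted p below 0.05. Among 20 other genes of common fragile sites, 17 could be fitted. None passed the adjusted threshold, and at an unadjusted p below 0.05 PARD3B (log2 change of 0.52) and CNTNAP2 (0.24) were higher and LRP1B (-0.23) and AUTS2 (-0.33) lower. In the fit of genes with at least 1 peak, which held all 20, none passed the adjusted threshold either. The largest changes there were in ESRRG (0.85, limma adjusted p = 0.0968) and NBEA (-0.75, adjusted p = 0.227). Shares did not overlap between the groups in ESRRG, which was higher in APH, and in NBEA, LRP1B, AUTS2 and DAB1, which were lower. Of the genes of at least 500 kb, 8.25% were higher and 4.44% lower without overlap. The median log2 change of the 17 was 0.02, beside -0.04 over all genes fitted. These 20 genes had between 3.64 and 12.9 peaks per Mb, with 13 denser than FHIT and 19 denser than WWOX.

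The genes most like FHIT in their share of peaks over the 6 samples, among those of at least 500 kb, were RYR2, STK3 and CCSER1, with a Pearson r of 0.910, 0.880 and 0.852. Those most like WWOX were NTM, FRMPD4 and GPC5, with 0.976, 0.973 and 0.967. These are the highest of 255 and 256 values over samples that share their depth, and are a description only.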

How the data were processed

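Peak lists of 6 RKO samples (3 DMSO, 3 APH) were read. The authors aligned reads with BWA mem (0.7.12) to hg38 per the submitters' processing notes, removed duplicates, kept uniquely mapped pairs, extended alignments to 200 bp, counted them in 32-nt bins and called peaks per sample with MACS2 2.1.0 without a control. No shift to the transposase cutting site is named. The deposited signal, a mean coverage over each peak, times its number of bins was whole, within 5e-05 per bin (0.0005 for values of 100 or more), for 99.987% to 99.996% of the peaks below 1000 bp and a value of 1000, so it was not multiplied by a library factor. The sources used here do not say whether reads were first reduced to equal numbers. Depth is unknown, and no counting interval was given. No pair of lists shared more than 0.0031% of its rows.

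Gene bodies and starts came from RefSeq tables of GRCh38.p14, and the strand of marker genes without a listed start from GENCODE. PECAM1 could not be placed and was not used. Region values (length-weighted means) and gene shares (peaks + 1) were fitted with limma 3.58.1 (R 4.3.3, intensity trend, pseudocount of 1), adjusted by Benjamini-Hochberg. Single values were compared with exact permutation tests (Python 3.11.15, numpy 2.4.6, pandas 2.3.3). The limma fits were first tested on simulated data. Members, lists and tests were chosen with earlier results of these data known. Named regions were those at a start, the 3 strongest per gene with peaks in all samples, those past the adjusted threshold and those in all samples of 1 group and none of the other. The other regions described were chosen after their values were seen. Named genes were the members, a list of fragile-site genes, neighbours by position and the 3 genes of highest correlation. Alternatives covered the peak threshold, the number of peaks, the assignment to genes, scaling, filters, pseudocounts, and fits with a replicate block or without each replicate.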

Additional observations from a re-analysis of the deposited data

How the results depend on the processing

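No difference between APH and DMSO in either gene passed the adjusted threshold without a replicate block, and for the single values of 3 samples against 3 the smallest exact p of 0.1 cannot pass 0.05. The sign of the FHIT difference in peak number, share, covered length and mean value was the same under every alternative run. The relative value of FHIT peaks, -0.08 (log2), was 0.038 without the start peak and without the 1 kb margin, which also drops that peak. WWOX differences near 0 changed sign more often. Its share of peaks (0.148 per 100000) was -0.191 without the margin, where its covered length (0.0603 kb) was -0.115 kb and its relative value (0.07) -0.037. The relative value was also -0.21 with peaks at or above the pooled median, -0.049 with an equal number of peaks and -0.071 weighted by peak length. Covered length was -0.0523 kb with peaks at or above the pooled median. The mean value (-9.51) was 6.38 without the start peak. After quantile normalization the changes of the FHIT start (0.038), the FHIT region at 1.29 kb (0.044) and the WWOX start (0.11) were above 0. Centred on sample medians, 1 of all regions passed the adjusted threshold, and 14 genes did with a mean of at least 1 peak.

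With each replicate left out, the FHIT differences ranged from 1.33 to 3.83 peaks, 0.482 to 3.37 per 100000, -20.3 to -10.2 in value, -0.19 to -0.01 (log2) in relative value and 0.401 to 1.06 kb. WWOX ranged from 0 (without APH replicate 2) to 1.5 peaks, -0.462 (without APH replicate 2) to 0.949 per 100000, -19.5 to 1.72 in value, -0.082 to 0.22 in relative value and -0.136 to 0.292 kb. The changes of the FHIT start (-0.26 to -0.16), the FHIT region at 69.3 kb (0.012 to 0.32) and the WWOX region at 136 kb (0.027 to 0.34) kept their sign. The median change of FHIT regions ranged from -0.14 to 0.21 and of WWOX regions from 0.03 to 0.34, and the regions passing genome-wide from 0 to 3 (without DMSO replicate 2). No gene passed with any replicate left out. The WWOX region at 826 kb had a change of 0.53 to 0.87 and a limma adjusted p of 0.153 to 0.887.

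The replicate numbers are not tied to pairs by the labels, and the deviations of same-numbered samples correlated by -0.0067, 0.48 and 0.52. Replicates 2 and 3 correlated best with the same number of the other group. DMSO replicate 1 correlated best with APH replicate 3 (0.13), and APH replicate 1 with DMSO replicate 2 (0.26). The numbers were not taken as pairs, though these correlations do not settle whether they are. With the replicate block, 1021 regions had a higher and 5583 a lower value with APH at the adjusted threshold (6604 in all, 2.04% and 11.1%), and the WWOX region at 826 kb was among them (0.67 ± 0.18, limma adjusted p = 0.0149). No other member region and no gene passed with this block. Sign-flip tests of the 10 single values with the block gave exact p between 0.5 and 0.75, where 3 pairs cannot give less than 0.25, so none could pass. The cause of these differences between settings was not tested. WWOX could not be fitted with at least 5 peaks, nor FHIT with peaks at or above the pooled median.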
